A study of Mus musculus with 7 samples.

Results

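Sorting nexin genes (Snx) and vacuolar protein sorting genes (Vps) were examined in testis of Phf13 knockout mice. The set was defined by symbol: Snx or Vps followed by a number and optional letters, among probe sets annotated to 1 gene symbol, with the probe set of highest mean over all arrays standing for each gene. It held 64 of the 18194 genes tested, 30 of them Snx and 34 Vps. The series compared whole testis of Phf13 knockout mice (3 arrays) with whole testis of wild type mice (4 arrays), all aged 15 to 20 weeks, with no treatment named in the labels. Biotinylated cRNA made from total RNA was hybridised to Affymetrix arrays, which report a fluorescence signal per probe set, given here on the log2 scale. The labels do not give the strain, the design of the deleted allele or whether it was removed in the whole animal. They do not say that each array came from a separate animal, and p-values therefore reflect only how far these arrays spread, which may be partly technical.

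Sorting nexins are peripheral membrane proteins that bind phosphoinositides on endosomes through a PX domain. Some also carry a BAR domain that bends membrane into tubules. Vps genes were named after yeast mutants that missort vacuolar enzymes. Their products form the retromer, which returns receptors from endosomes to the Golgi or plasma membrane, the ESCRT complexes, which sort ubiquitinated cargo into multivesicular bodies, and the HOPS, CORVET, GARP and EARP complexes, which tether vesicles before fusion. In the testis the endolysosomal system serves the digestion of residual bodies by Sertoli cells and the building of the acrosome in spermatids.

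Phf13, the deleted gene, had log2 signals of 6.04, 5.83 and 5.71 in knockout arrays, against 8.66, 8.64, 8.73 and 8.54 in wild type arrays. Its log2 fold change, knockout minus wild type, came to −2.78 (SE 0.09, limma adjusted p = 8.76e-06). The sources used here do not say whether its probe set lies in the deleted part. Array medians were 5.01 to 5.08, and arrays correlated at 0.984 to 0.996 across the tested genes. Arrays carry no read depth, and their number limits the precision. Markers of somatic cells were higher in knockout testis: 14 of 17 measured Sertoli cell markers, 7 of 9 Leydig cell markers, 4 of 8 peritubular myoid markers and 6 of 10 macrophage markers rose, and 0 of these fell (limma, against 9.07% of all genes that rose). Summed linear signals of the Sertoli markers were 20206 to 22222 in knockout arrays and 11938 to 15291 in wild type arrays, those of the Leydig markers 13431 to 16420 in knockout and 6375 to 9722 in wild type, those of the myoid markers 2418 to 2716 in knockout and 1475 to 1809 in wild type, and those of the macrophage markers 1310 to 2096 in knockout and 921 to 1196 in wild type. Round spermatid markers summed to 13116 to 13342 in knockout and 14254 to 15895 in wild type arrays, with 3 of 11 past the threshold, all lower. Elongating spermatid markers summed to 85554 to 87037 in knockout and 88044 to 93506 in wild type arrays, with 2 of 12 that fell. Of the other lists, 2 of 10 spermatogonium and 1 of 8 endothelial markers rose, and 2 of 14 spermatocyte and 1 of 5 epididymis and rete testis markers fell. Over all genes, 7.05% fell. Sums of the spermatocyte markers overlapped, at 22162 to 24286 in knockout and 23638 to 24075 in wild type arrays. So did those of spermatogonium (knockout 2108 to 2236, wild type 1869 to 2159) and endothelial markers (knockout 307 to 394, wild type 272 to 325). Those of epididymis and rete testis markers were 399 to 453 in knockout and 500 to 552 in wild type arrays. With arrays of like title number as a block, 12 Sertoli, 7 Leydig, 4 myoid, 3 macrophage and 1 endothelial marker rose, 2 spermatocyte and 1 round spermatid marker fell, and 0 spermatogonium, elongating spermatid or epididymis and rete testis markers passed (limma). With this block 7.71% of all genes rose and 5.03% fell (limma). In whole testis fewer cells of a type and less RNA per cell cannot be told apart. Several of these marker levels moved with genotype, as genes below did, and the part of the marker levels in those results was not tested.

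Of the 64 sorting nexin and Vps genes, 8 rose and 3 fell in knockout testis at an adjusted p of 0.05 (limma, Benjamini-Hochberg adjustment over all 18194 genes). That is 17.2% of the set, and 16.1% of all tested genes passed in either direction, so the number called is close to the background. By direction, 12.5% of the set rose, against 9.07% of all genes, and 4.69% fell, against 7.05%. The genes that rose were Snx18, Snx10, Snx7, Snx17, Snx33, Vps26b, Vps18 and Snx5, and those that fell were Vps13a, Vps36 and Vps28. The other 53 had log2 fold changes of −0.24 to 0.39. Changes were small, as they were over all genes: 0 of the 64 genes reached 2-fold, and 85 of the 18194 tested genes did. The median absolute log2 fold change was 0.14 both in the set and over all genes. The median log2 fold change was 0.00 in the set and −0.04 over all genes, and 50.0% of the set lay above 0, against 40.1% of all genes.

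Counts were also taken for each family. Of 30 Snx genes, 6 rose (20.0%, against 9.07% of all genes) and 0 fell (against 7.05%) in limma, with a median log2 fold change of 0.08 and a range of −0.24 to 0.65. Of 34 Vps genes, 2 rose (5.88%) and 3 fell (8.82%), with a median of −0.03 and a range of −0.44 to 0.39. The difference between the families was not tested. The values of the genotypes were fully separate for 23 of the 64 genes (35.9%), against 28.0% of all tested genes. Of these, 14 were higher in knockout (21.9%, against 12.8% of all genes) and 9 were lower (14.1%, against 15.2%).

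**Figure D1:**
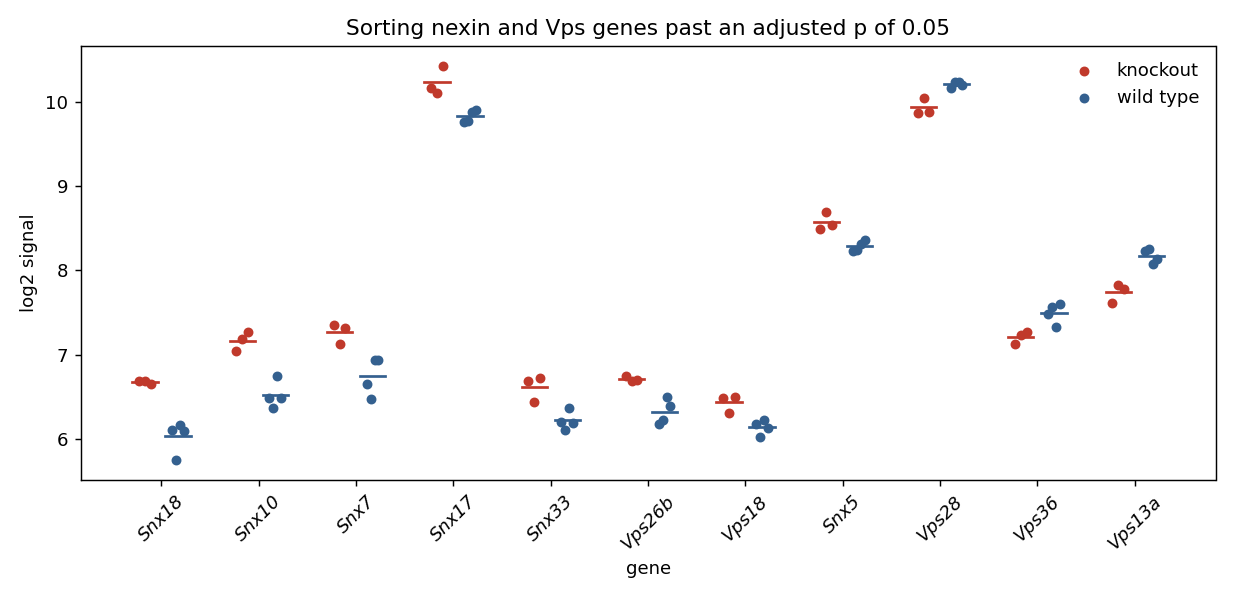
Log2 signal of the 11 sorting nexin and Vps genes past an adjusted p of 0.05, with 1 point per array, 3 knockout arrays (red) left of 4 wild type arrays (blue), and a line at each mean. The points of the genotypes are separate for each gene, by 1.57-fold for Snx18 and by 1.21-fold for Vps28 on average.

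The retromer core is a trimer of Vps35, Vps29 and a Vps26 protein, for which mice have the paralogues Vps26a and Vps26b. Vps26b rose in knockout testis while Vps26a, Vps29 and Vps35 did not pass. The log2 signals of Vps26b were 6.74, 6.69 and 6.70 in knockout arrays, against 6.17, 6.22, 6.50 and 6.39 in wild type arrays. All knockout arrays were above all wild type arrays, and the log2 fold change came to 0.39 (SE 0.09, limma adjusted p = 0.0238), or 1.31-fold. Vps26a had log2 signals of 10.65, 10.78 and 10.49 in knockout arrays and 10.88, 10.87, 10.91 and 10.81 in wild type arrays. Here every knockout array was below every wild type array, but the log2 fold change of −0.23 (95% interval −0.40 to −0.05) had a limma adjusted p of 0.0789.

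Vps35, the scaffold of the trimer, had log2 signals of 10.10, 10.10 and 10.16 in knockout arrays and 9.91, 9.97, 10.01 and 10.16 in wild type arrays. The genotypes overlapped at their highest values, and the log2 fold change was 0.11 (95% interval −0.06 to 0.27, limma adjusted p = 0.327). Vps29, which binds the far end of Vps35, had log2 signals of 9.84, 10.02 and 9.99 in knockout arrays and 9.87, 9.89, 9.95 and 10.04 in wild type arrays. The genotypes overlapped over nearly their whole range, with a log2 fold change of 0.01 (95% interval −0.15 to 0.18, limma adjusted p = 0.918). In the retriever, a relative of retromer, Vps35l had a log2 fold change of 0.11 (limma adjusted p = 0.433), and Vps26c of 0.00 (95% interval −0.22 to 0.21).

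The promoters of the Vps26 paralogues are shown because Vps26b rose while Vps26a did not pass. Each promoter sequence here spans 250 bases before to 50 bases after a RefSeq start of the GRCm38.p6 build, read 5′ to 3′ on the gene's strand, with GC boxes (GGGCGG or CCGCCC) and CCAAT boxes (CCAAT or ATTGG) in capitals. Vps26a lies on the minus strand (chr10:62486756-62487055), with the first of 2 listed starts used, and Vps26b on the minus strand (chr9:27030045-27030344).
Vps26a: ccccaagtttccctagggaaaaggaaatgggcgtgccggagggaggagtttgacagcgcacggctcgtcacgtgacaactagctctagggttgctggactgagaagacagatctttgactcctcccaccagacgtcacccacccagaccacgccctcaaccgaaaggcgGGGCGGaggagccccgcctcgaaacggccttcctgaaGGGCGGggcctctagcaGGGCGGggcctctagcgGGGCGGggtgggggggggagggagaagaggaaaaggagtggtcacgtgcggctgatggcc
Vps26b: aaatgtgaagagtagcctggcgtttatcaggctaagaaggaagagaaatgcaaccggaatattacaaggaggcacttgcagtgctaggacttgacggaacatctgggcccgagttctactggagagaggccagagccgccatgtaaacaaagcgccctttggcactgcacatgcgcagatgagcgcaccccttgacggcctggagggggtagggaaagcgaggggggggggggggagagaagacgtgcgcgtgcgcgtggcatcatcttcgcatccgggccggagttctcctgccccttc
The Vps26a stretch held 4 GC boxes and 20 CpG dinucleotides, and the Vps26b stretch held 0 GC boxes and 18 CpG dinucleotides. Neither held a CCAAT box.

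The SNX-BAR proteins of retromer are Snx1 and Snx2, which pair with Snx5, Snx6 or Snx32 to form endosomal tubules. Of these 5 genes, 1 rose, 0 fell and 4 did not pass (limma), with a median log2 fold change of 0.23. That is 20.0% that rose, against 9.07% of all genes. Snx5 had log2 signals of 8.49, 8.69 and 8.54 in knockout arrays, against 8.23, 8.24, 8.31 and 8.36 in wild type arrays. The lowest knockout array was above the highest wild type array, and the log2 fold change came to 0.29 (SE 0.07, limma adjusted p = 0.0305), or 1.22-fold. Snx6, its close paralogue, had the same log2 fold change of 0.29 (SE 0.09) with no overlap of the genotypes, and its adjusted p in limma was 0.0515. Snx2 had a log2 fold change of 0.23 (SE 0.08, limma adjusted p = 0.0957) and Snx1 of −0.14 (SE 0.08, limma adjusted p = 0.261). Snx32, which was dim, had a log2 fold change of −0.12.

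Of the 7 other SNX-BAR genes, 3 rose and 0 fell (limma), or 42.9% that rose, against 9.07% of all genes. With the title-number block (groups of arrays of like title number) 1 of the 3 still passed. All 7 had log2 fold changes above 0, as had 40.1% of all genes, from 0.03 to 0.65 with a median of 0.21. Snx18 and Snx33 carry an SH3 domain and, like Snx9, bind dynamin and actin regulators at sites of endocytosis. Snx7 pairs with Snx4 in recycling from endosomes. Snx18 had the largest rise of the 64 genes, with log2 signals of 6.69, 6.69 and 6.65 in knockout arrays and 6.11, 5.75, 6.16 and 6.09 in wild type arrays. The knockout arrays lay close together and well above all wild type arrays, of which wild type 2 was the lowest. The log2 fold change came to 0.65 (SE 0.10, limma adjusted p = 0.0120), or 1.57-fold.

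Snx33 had log2 signals of 6.68, 6.44 and 6.72 in knockout arrays, against 6.20, 6.11, 6.37 and 6.19 in wild type arrays. Only a narrow gap separated knockout 2 from wild type 3, and the log2 fold change came to 0.40 (SE 0.09, limma adjusted p = 0.0257). Snx9, the other gene of this SH3 group, had a log2 fold change of 0.19 (SE 0.08, limma adjusted p = 0.129). Snx7 had log2 signals of 7.35, 7.12 and 7.32 in knockout arrays and 6.65, 6.47, 6.94 and 6.94 in wild type arrays. Its wild type arrays spread widely but stayed below the knockout arrays, and the log2 fold change came to 0.51 (SE 0.13, limma adjusted p = 0.0311). Its partner Snx4 had a log2 fold change of 0.21 (limma adjusted p = 0.106), also without overlap.

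Snx17 and Snx31 carry a FERM domain that recognises NPxY motifs of receptors, and Snx27 carries a PDZ domain and links cargo to retromer. Snx17 recycles integrins and lipoprotein receptors with the retriever. Its log2 signals were 10.17, 10.11 and 10.43 in knockout arrays and 9.76, 9.77, 9.88 and 9.90 in wild type arrays. Knockout 3 was the highest, all knockout arrays were above all wild type arrays, and the log2 fold change came to 0.41 (SE 0.09, limma adjusted p = 0.0218). Snx27 had a log2 fold change of −0.05 (95% interval −0.26 to 0.17, limma adjusted p = 0.759), and Snx31, one of the dimmest of the set, of −0.15.

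Of 6 small sorting nexins that consist of little more than a PX domain, 1 rose and 0 fell (limma). That is 16.7% that rose, against 9.07% of all genes, and the median log2 fold change was 0.17. Snx10, known for endosome and vacuole morphology and for bone resorption by osteoclasts, was the one that rose. Its log2 signals were 7.04, 7.18 and 7.27 in knockout arrays, against 6.48, 6.36, 6.75 and 6.49 in wild type arrays. The genotypes were clearly separate, and the log2 fold change came to 0.64 (SE 0.10, limma adjusted p = 0.0121), or 1.56-fold. Snx12 had a log2 fold change of 0.32 (SE 0.10, limma adjusted p = 0.0570), Snx11 of −0.10, and Snx3, which sorts the Wnt carrier Wntless, of 0.06.

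The promoters of Snx18 and Snx10, the genes of the largest rises, follow with the same marks. Snx18 lies on the minus strand (chr13:113618515-113618814), and Snx10 on the plus strand (chr6:51523653-51523952), with the first of its 3 listed starts used.
Snx18: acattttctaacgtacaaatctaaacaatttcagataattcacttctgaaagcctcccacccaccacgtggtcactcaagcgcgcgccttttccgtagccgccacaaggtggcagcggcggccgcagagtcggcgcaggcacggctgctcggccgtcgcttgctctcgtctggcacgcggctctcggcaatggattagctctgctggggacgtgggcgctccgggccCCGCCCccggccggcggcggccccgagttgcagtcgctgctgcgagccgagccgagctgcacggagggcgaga
Snx10: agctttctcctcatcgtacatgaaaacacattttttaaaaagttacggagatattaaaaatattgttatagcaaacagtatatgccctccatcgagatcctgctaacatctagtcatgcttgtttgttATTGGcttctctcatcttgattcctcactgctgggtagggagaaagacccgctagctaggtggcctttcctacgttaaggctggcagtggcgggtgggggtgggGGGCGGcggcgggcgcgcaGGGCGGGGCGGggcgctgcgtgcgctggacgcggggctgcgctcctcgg
The Snx18 stretch held 35 CpG dinucleotides, 1 GC box and 0 CCAAT boxes, and the Snx10 stretch held 20 CpG dinucleotides, 3 GC boxes and 1 CCAAT box. The GC boxes and the CCAAT box thus were not a feature that the stretches of Snx18, Snx10 and Vps26b had in common.

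The 4 SNX-RGS genes are a family named for the RGS domain that Snx13, Snx14 and Snx25 carry. All 4 had log2 fold changes below 0, while 40.1% of all genes lay above 0. The values ran from −0.20 for Snx19 (SE 0.08, limma adjusted p = 0.132) to −0.01 for Snx13, and 0 passed (limma). At an unadjusted p under 0.05, 40.6% of the set (26 of 64 genes) and 33.8% of all genes passed. Among 5 other PX genes, 0 passed as well. Snx16, which acts in early and recycling endosomes, had a log2 fold change of 0.39 (SE 0.12, limma adjusted p = 0.0557) without overlap of the genotypes. Snx15 had one of −0.20 (limma adjusted p = 0.0936), also without overlap, and Snx29, at −0.24 (SE 0.23), was the least precise of the set.

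**Figure D2:**
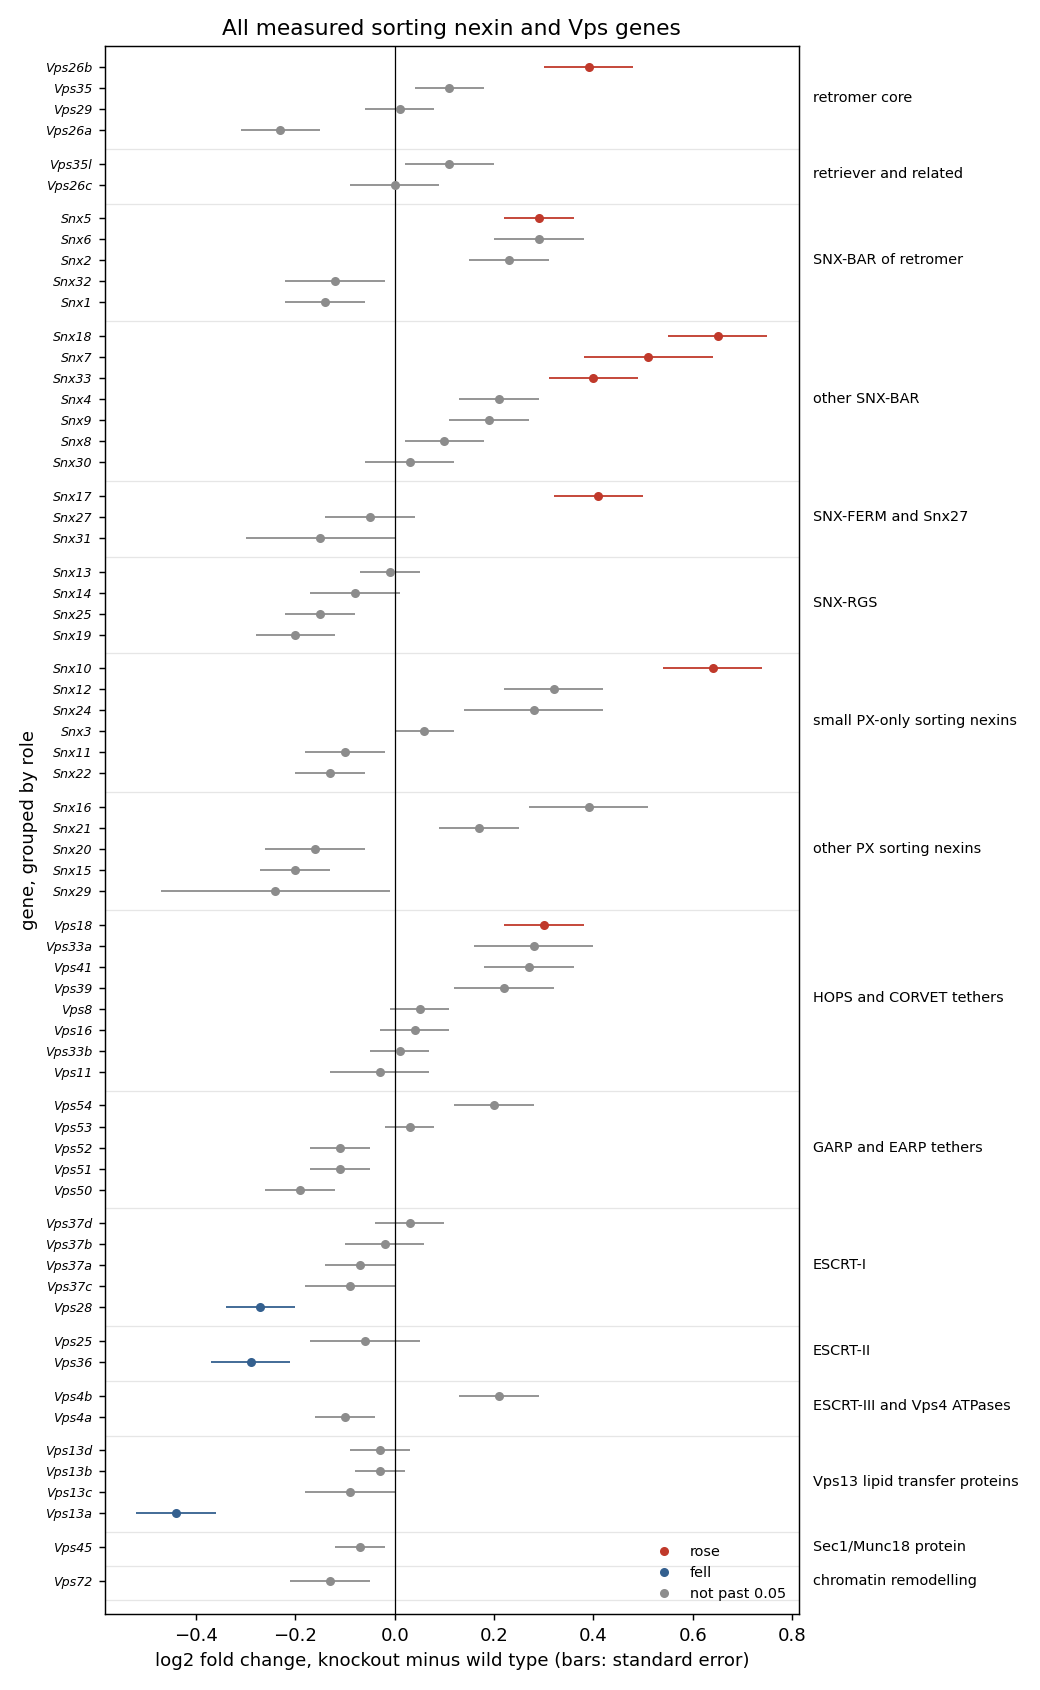
Log2 fold change, knockout minus wild type, of all 64 genes grouped by role, with bars of 1 standard error, red for genes that rose, blue for genes that fell and grey for the rest. The 7 other SNX-BAR genes lie at 0.03 to 0.65, and the 4 Vps13 genes at −0.44 to −0.03.

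HOPS and CORVET share a core and tether late and early endosomes before fusion. Of the 8 genes grouped with them, which include the Vps33a paralogue Vps33b, 1 rose (12.5%, against 9.07% of all genes) and 0 fell (limma). With the title-number block 0 passed in limma. Log2 fold changes were above 0 for 7 of 8, against 40.1% of all genes, and the median was 0.13. Vps18, a core subunit with a RING domain, was the gene that rose. It had log2 signals of 6.49, 6.31 and 6.50 in knockout arrays and 6.18, 6.02, 6.22 and 6.13 in wild type arrays. The gap between knockout 2 and wild type 3 was narrow, and the log2 fold change came to 0.30 (SE 0.08, limma adjusted p = 0.0354). Vps41 and Vps39, the HOPS-specific subunits, had log2 fold changes of 0.27 (limma adjusted p = 0.0822) and 0.22 (limma adjusted p = 0.169). Vps33a, which templates SNARE assembly, had one of 0.28 (limma adjusted p = 0.136), while its paralogue Vps33b had one of 0.01.

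None of the 5 GARP and EARP genes passed (limma, 0 of 5), with log2 fold changes of −0.19 to 0.20. GARP tethers endosome-derived vesicles at the trans-Golgi, and its subunit Vps54 is mutated in the wobbler mouse, whose sperm lack acrosomes. Vps54 had a log2 fold change of 0.20 (SE 0.08, limma adjusted p = 0.137). Vps50, which replaces Vps54 in EARP, had one of −0.19 (SE 0.07, limma adjusted p = 0.104) without overlap of the genotypes.

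ESCRT-I and ESCRT-II act in sequence on ubiquitinated cargo. In limma, 1 of 5 ESCRT-I genes and 1 of 2 ESCRT-II genes fell, against 7.05% of all genes. Vps28, the ESCRT-I subunit that contacts ESCRT-II, had log2 signals of 9.87, 10.05 and 9.88 in knockout arrays, against 10.17, 10.23, 10.23 and 10.20 in wild type arrays. The wild type arrays lay close together above all knockout arrays, and the log2 fold change came to −0.27 (SE 0.07, limma adjusted p = 0.0284), or 1.21-fold lower. Vps36, the ESCRT-II subunit that binds ubiquitin, had log2 signals of 7.12, 7.23 and 7.27 in knockout arrays and 7.48, 7.57, 7.33 and 7.60 in wild type arrays. Only a narrow gap separated knockout 3 from wild type 3, and the log2 fold change came to −0.29 (SE 0.08, limma adjusted p = 0.0460). The other 4 ESCRT-I genes, Vps37a to Vps37d, had log2 fold changes of −0.09 to 0.03 at their brightest probe sets. Dimmer probe sets of Vps37a had 0.58 and 0.55 (limma adjusted p = 0.0159 and 0.0379 over all probe sets), and that of Vps37c had −0.22 (limma adjusted p = 0.0644). Vps25, the other ESCRT-II gene, had a dim probe set, and 2 further probe sets that name it together with Ramp2 were left out. Of the ATPases that disassemble ESCRT-III, Vps4b had a log2 fold change of 0.21 (limma adjusted p = 0.117) and Vps4a of −0.10.

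Vps13 proteins are bridges that carry lipid between organelles at membrane contacts. All 4 genes had log2 fold changes below 0, and 1 fell (limma). Over all genes, 40.1% had log2 fold changes above 0, the median was −0.04 and 7.05% fell. Vps13a, mutated in human chorea-acanthocytosis, had the largest fall of the 64 genes. Its log2 signals were 7.61, 7.82 and 7.78 in knockout arrays, against 8.23, 8.25, 8.07 and 8.14 in wild type arrays. Every knockout array was below every wild type array, and the log2 fold change came to −0.44 (SE 0.08, limma adjusted p = 0.0138), or 1.35-fold lower. Vps13b had a log2 fold change of −0.03, Vps13c of −0.09 and Vps13d of −0.03 (95% interval −0.16 to 0.10). Vps13d is the one gene of the set within 10 Mb of Phf13 on chromosome 4.

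The promoter of Vps13a is shown for comparison with those of the genes that rose. It lies on the minus strand (chr19:16780884-16781183).
Vps13a: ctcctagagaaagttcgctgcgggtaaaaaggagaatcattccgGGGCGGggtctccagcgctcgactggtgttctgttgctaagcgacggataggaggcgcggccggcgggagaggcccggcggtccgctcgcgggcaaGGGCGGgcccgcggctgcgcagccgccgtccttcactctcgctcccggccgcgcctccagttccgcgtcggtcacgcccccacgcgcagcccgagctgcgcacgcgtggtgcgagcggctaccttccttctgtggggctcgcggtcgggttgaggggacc
This stretch held 42 CpG dinucleotides, 2 GC boxes and 0 CCAAT boxes. Across the set, 43 of 64 genes matched a RefSeq promoter. Of these, 72.1% held a GC box on either strand, against 54.0% of the promoters of 14453 tested genes, 32.6% held a CCAAT box, against 38.2%, and 6.98% held a TATA box (TATAAA or TTTATA), against 9.87%. The median number of CpG dinucleotides was 24 in the set and 17 over all genes. Boxes that share bases were each counted, as at the adjoining GC boxes of Snx10, and a match describes the letters only.

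The 2 genes outside these complexes did not pass (limma). Vps45, the Sec1/Munc18 partner of endosomal SNAREs, had a log2 fold change of −0.07 (limma adjusted p = 0.398) with little spread in either genotype. Vps72 carries the family's name but encodes a subunit of chromatin remodelling complexes, and it had a log2 fold change of −0.13 (limma adjusted p = 0.262).

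Array titles open with a number whose meaning the labels do not explain. Its first digits put knockout 1 beside wild type 1, knockout 2 beside wild type 2 and wild type 3, and knockout 3 beside wild type 4, and these groups were checked as batches. For the 11 called genes the arrays of the genotypes do not overlap, so the sign within each title-number group is fixed and the sizes alone are read. Snx18 had differences of 0.58, 0.74 and 0.56 within the groups in that order, Snx10 of 0.56, 0.62 and 0.78, and Vps13a of −0.62, −0.34 and −0.36. Those of Vps26b were 0.57, 0.33 and 0.31, those of Snx17 were 0.41, 0.29 and 0.53, those of Snx5 were 0.26, 0.41 and 0.18, and those of Vps28 were −0.30, −0.18 and −0.32. These 7 genes stayed past the threshold with the title number as a block (limma adjusted p of 0.0259 to 0.0477), against 12.7% of all genes, so 10.9% of the set passed there.

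The block ended the call for the other 4. Snx7 had differences of 0.70, 0.42 and 0.38, with a blocked limma adjusted p of 0.0544. Snx33 had differences of 0.48, 0.20 and 0.53, with a blocked limma adjusted p of 0.0540. For Vps18 they were 0.31, 0.19 and 0.37, with a blocked limma adjusted p of 0.0635, and for Vps36 they were −0.36, −0.22 and −0.33, with a blocked limma adjusted p of 0.0614. Leaving out 1 array ended more calls: 0 of the 64 genes passed in limma without knockout 3, where 15 (23.4%) had an unadjusted p under 0.05, against 26.4% of all genes, and 0.962% of all genes passed. Without knockout 1, wild type 1 or wild type 2, the genes that passed were Snx10, Snx18 and Vps13a, 4.69% of the set each time, against 5.47%, 4.07% and 7.50% of all genes. Vps28 was lost without wild type 3, Snx5 and Vps36 without knockout 2, and Snx33, Vps18, Vps28 and Vps36 without wild type 4. Without both knockout 3 and wild type 4, 0 of the 64 passed in limma, where 17 (26.6%) had an unadjusted p under 0.05, against 25.0% of all genes, and 0.022% of all genes passed.

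**Figure D3:**
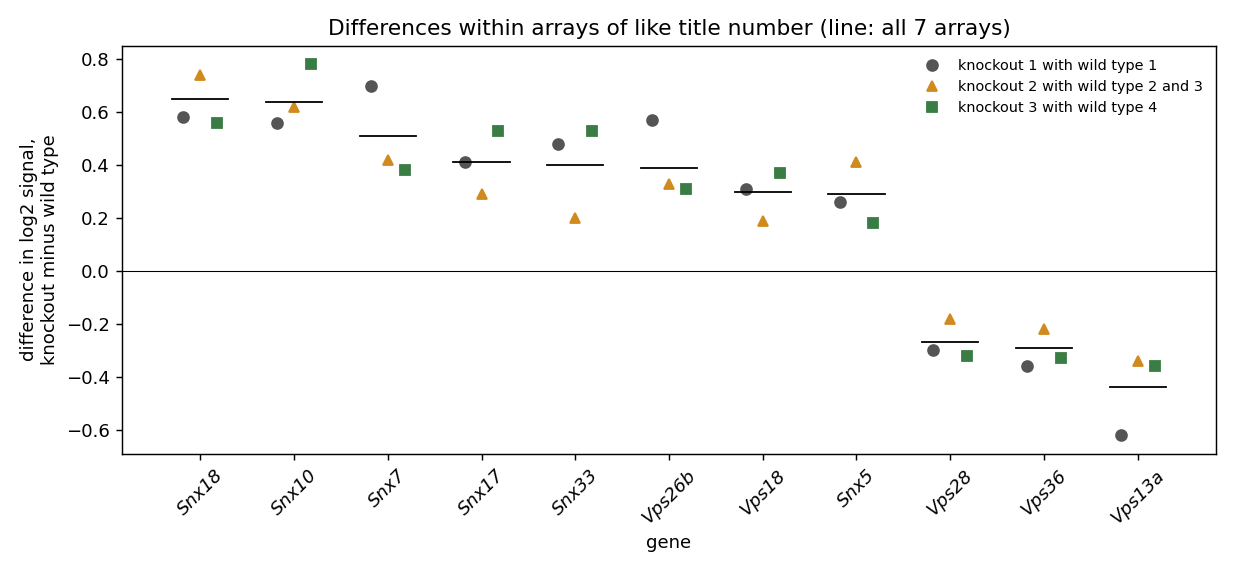
Difference in log2 signal, knockout minus wild type, of the 11 called genes within each of the 3 title-number groups (points) and over all 7 arrays (lines). The differences of Snx33 range from 0.20 to 0.53 and those of Vps13a from −0.62 to −0.34; their side of 0 is fixed because the genotypes do not overlap.

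Related genes were set against each other within each array for 16 pairs. The difference between the log2 signals of different probe sets depends on the probes, so only how it differs between genotypes is read. For 6 pairs an exact two-sided permutation test over the 35 divisions of the arrays gave p = 0.0286, the smallest p it can give. Adjusted over the 16 pairs, these 6 had p = 0.0762 in the exact test, so 0 pairs passed 0.05, and 6 had an unadjusted p under 0.05. With so few arrays, a pair could pass the adjustment only if most of the 16 pairs reached the smallest p. The count of 0 therefore says little about any pair. Vps26a minus Vps26b was 3.91, 4.09 and 3.79 in knockout arrays and 4.71, 4.65, 4.41 and 4.42 in wild type arrays. That is 3.93 ± 0.15 (SD, n = 3 arrays) in knockout testis and 4.55 ± 0.15 (SD, n = 4 arrays) in wild type testis, a difference of −0.62 between genotypes. Every knockout array was below every wild type array. This had to follow, because knockout arrays were all lower for Vps26a and all higher for Vps26b. The test of this pair thus adds no support beyond the values of each gene. Snx10 minus Snx11 differed most between genotypes, by 0.74, with 0.39 ± 0.22 (SD, n = 3 arrays) in knockout testis and −0.35 ± 0.17 (SD, n = 4 arrays) in wild type testis.

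In the remaining 4 of those 6 pairs the difference between genotypes was smaller. It was −0.46 for Snx9 minus Snx18, 0.45 for Snx17 minus Snx27, −0.36 for Snx1 minus Snx2 and −0.33 for Snx20 minus Snx21, each without overlap. In contrast, Snx5 minus Snx6 was 0.85 ± 0.05 (SD, n = 3 arrays) in knockout testis and 0.86 ± 0.04 (SD, n = 4 arrays) in wild type testis, a difference of 0.00 (exact permutation p = 0.971). The difference between genotypes was −0.31 for Vps4a minus Vps4b, without overlap, and −0.35 for Vps13a minus Vps13c, with knockout 3 inside the wild type range, each at an exact permutation p of 0.0571.

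**Figure D4:**
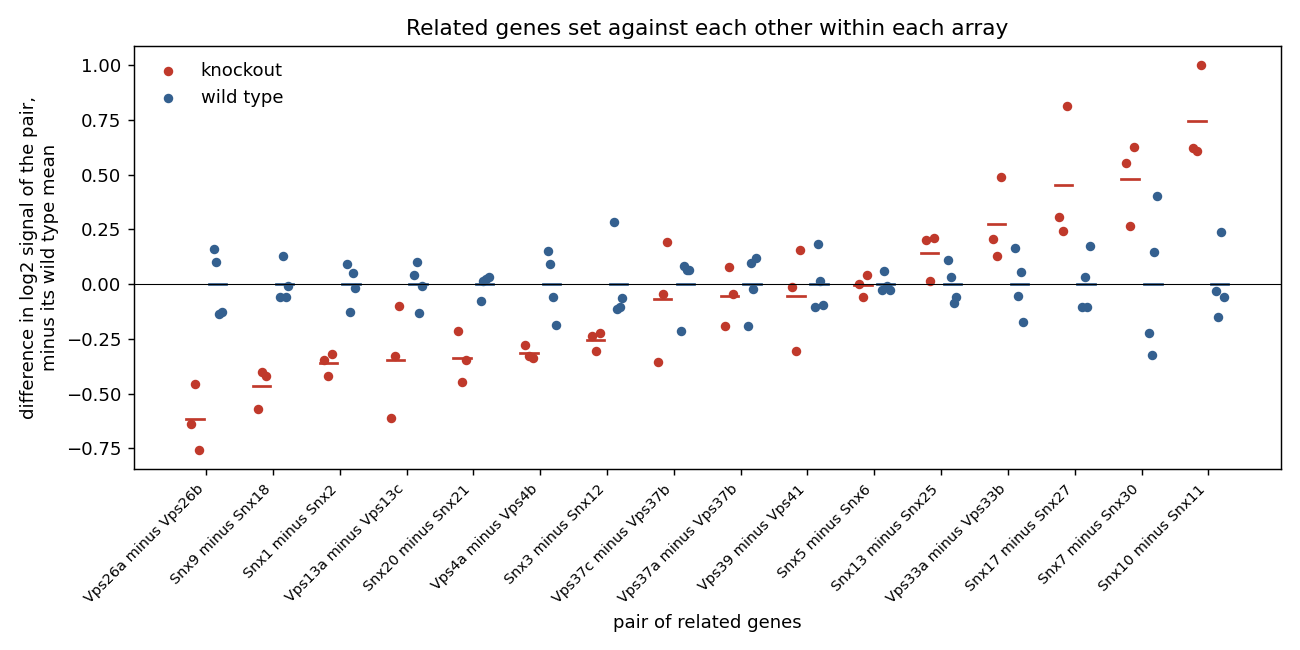
Difference in log2 signal between the genes of each of 16 pairs, with the wild type mean of the pair subtracted, 1 point per array, knockout (red) left of wild type (blue), and lines at the means. Knockout means run from −0.62 for Vps26a minus Vps26b to 0.74 for Snx10 minus Snx11.

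Of the 64 genes, 37 had more than 1 probe set, and all 135 probe sets were tested among 34958 on the array with 1 symbol. In this test 16 of 135 (11.9%) passed, against 11.4% of all probe sets. For 7 of the 11 called genes other probe sets existed, 16 in all, of which 13 had the sign of the brightest one and 3 passed: 1 each for Snx5 (0.39, limma adjusted p = 0.0266), Vps26b (0.41, limma adjusted p = 0.0422) and Vps13a (−0.36, limma adjusted p = 0.0230). All 5 probe sets of Snx5 had differences of 0.21 to 0.42, and the 3 of Vps26b of 0.24 to 0.41. The second probe sets of Snx18 (0.20, limma adjusted p = 0.193) and Snx10 (0.26, limma adjusted p = 0.154) had smaller differences, and that of Snx10 was dim.

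Vps36 and Vps13a were the called genes whose probe sets did not all share a sign. The brightest probe set of Vps36 had a difference of −0.29 (limma adjusted p = 0.0556 over all probe sets), and the others had 0.12 and 0.10. The 5 probe sets of Vps13a had differences of −0.44, −0.36, 0.00, −0.13 and −0.22, from the brightest to the dimmest. Vps37a, an ESCRT-I subunit, showed the widest disagreement of the genes drawn. Its brightest probe set had a difference of −0.07, while the second had log2 signals of 8.06, 8.05 and 8.18 in knockout arrays and 7.47, 7.29, 7.69 and 7.62 in wild type arrays. That probe set was higher in every knockout array, with a difference of 0.58 (SE 0.10, limma adjusted p = 0.0159), and the remaining one had 0.55 (limma adjusted p = 0.0379). Vps53, of GARP and EARP, had 0.03 at its brightest probe set and −0.32 (limma adjusted p = 0.0382) at a dim one. These probe sets of Vps37a and Vps53 were named after their values were seen, and which transcripts each detects was not tested.

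**Figure D5:**
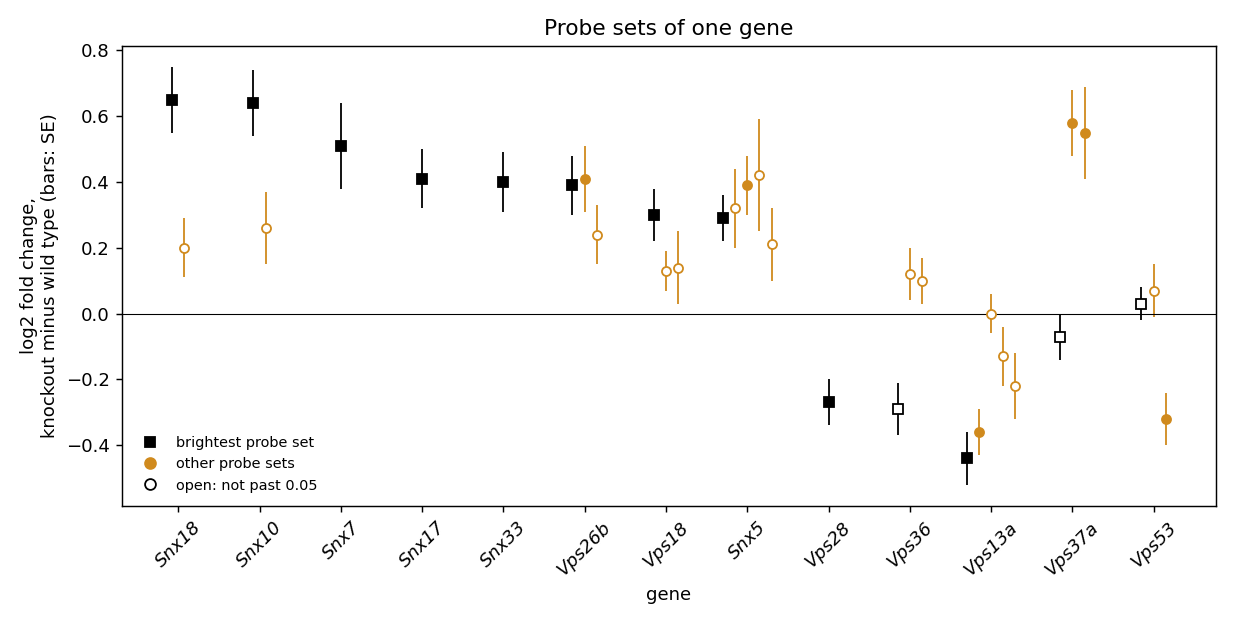
Difference in log2 signal, knockout minus wild type, of every probe set of the 11 called genes, Vps37a and Vps53, with bars of 1 standard error, squares for the brightest probe set, circles for others and open symbols for those not past 0.05 over all probe sets. The probe sets of Snx5 lie together at 0.21 to 0.42, and those of Vps37a lie at −0.07, 0.58 and 0.55.

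Other genes of the same machines were counted from lists of partners, cargo and fusion proteins. The arrays measured 87 of them, of which 12 rose, 5 fell and 70 stayed above the threshold (limma). That is 13.8% that rose, against 9.07% of all genes, and 5.75% that fell, against 7.05%. Among 12 endosomal SNAREs, which drive membrane fusion, 5 rose and 1 fell, and with the title-number block 4 rose and 1 fell, without Stx12 (limma adjusted p = 0.0471, and 0.0693 with the block). Over all genes, 7.71% rose and 5.03% fell with that block (limma). Vamp8 rose by 0.70 (SE 0.11, limma adjusted p = 0.0116), Stx6 by 0.56 (SE 0.11) and Stx7 by 0.49 (SE 0.10). Vamp3 was the SNARE that fell, with a log2 fold change of −0.73 (SE 0.13, limma adjusted p = 0.0133), and it lies within 10 Mb of Phf13 on chromosome 4.

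Of 10 genes of retromer cargo and partners, 2 rose and 0 fell (limma), against 9.07% of all genes that rose. Slc11a2, an iron transporter recycled by retromer, had log2 signals of 6.71, 6.64 and 6.75 in knockout arrays and 6.26, 5.99, 5.89 and 6.02 in wild type arrays. The genotypes were separate, with a log2 fold change of 0.66 (SE 0.09, limma adjusted p = 0.0116). M6pr, the cation-dependent mannose 6-phosphate receptor that carries lysosomal enzymes, rose by 0.48 (SE 0.09, limma adjusted p = 0.0153). Within the title-number groups the differences were 0.45, 0.70 and 0.73 for Slc11a2 and 0.45, 0.51 and 0.46 for M6pr, with signs fixed because the genotypes do not overlap.

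In the WASH complex list of 8, which builds actin on retromer domains, Capza2 rose by 0.35 (SE 0.08, limma adjusted p = 0.0254) and Washc5 by 0.40 (SE 0.11, limma adjusted p = 0.0453). Of 15 further ESCRT-I to ESCRT-III genes, Chmp5 rose by 0.46 (SE 0.12, limma adjusted p = 0.0374), while the ESCRT-I subunit Ubap1 had a log2 fold change of −0.28 (limma adjusted p = 0.0319) and Chmp6 of −0.24 (limma adjusted p = 0.0463), both of which fell. Ccdc93, of the CCC complex that works with retriever, had a log2 fold change of −0.41 (SE 0.09, limma adjusted p = 0.0237), 1 of 12 in its list to pass. Appl1 (0.45, limma adjusted p = 0.0264), the PI3P 5-kinase gene Pikfyve (0.25, limma adjusted p = 0.0497) and Plekhm2 (−0.29, limma adjusted p = 0.0374) were each the 1 gene past the threshold in lists of 7 early endosome tethers, 10 phosphoinositide enzymes and 6 HOPS and CORVET partners, and 0 of 8 ESCRT-0 and accessory genes passed in limma. Over all genes, 9.07% rose and 7.05% fell (limma), and 16.1% passed in either direction, so most of these counts lie near the background. In these lists, with the title-number block, Washc5, Chmp6, Appl1 and Pikfyve no longer passed (limma adjusted p of 0.0655, 0.0856, 0.0561 and 0.0825).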

How the data were processed

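Trizol was used to extract total RNA, of which 2 ug went into biotinylated cRNA, per the labels' protocols. The deposited table holds log2 signals of 45101 probe sets in 7 arrays. The authors' processing notes name Affymetrix Expression Console 1.4.1. The summarisation, background and normalization methods are not given in the sources used here, and the log2 scale was read from the range, 1.59 to 13.92. No detection calls were used. Gene symbols came from a platform annotation: 34958 probe sets had 1 symbol, 932 several and 9211 none here. Each of 18194 genes was represented by its brightest probe set.

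The genotypes were compared by limma 3.58.1 (R 4.3.3, functions lmFit and eBayes, two-sided), with Benjamini-Hochberg adjustment over all genes and a threshold of 0.05. The limma step was tested on simulated data with independent errors, no batches and changes larger than most of those called in the set. That test therefore does not cover batches or the smaller changes called here. Paralogues were compared by exact permutation tests (scipy 1.17.1). Alternatives were median centring, quantile normalization, a filter on dim genes, the mean or most variable probe set, trend and robust settings, array weights, replicate and title-number blocks, and leaving out each array. Leaving out knockout 3 and wild type 4 together was added after seeing the data. No array pair shared over 8.09% of values exactly.

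The members, lists, roles and pairs were chosen with earlier results of these data known. Genes named were those past the threshold, the retromer core, the smallest p in each role, members of pairs discussed, members within 10 Mb of Phf13 and, of each list of partners, up to 4 past the threshold. Other members given with values were picked after seeing them.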

Additional observations from a re-analysis of the deposited data

Results flagged for a closer look

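Among 65 genes (the 64 members and Phf13), the highest and lowest of the 4 wild type arrays were checked with Dixon's test at the 95% critical value of 0.829. Chance marks about 1 in 20 groups, and 4 were marked. The lowest wild type array of Snx18, wild type 2 at a log2 signal of 5.75, had a gap ratio of 0.829, and that of Snx1, also wild type 2 at 9.27, had one of 0.867. The highest wild type array of Vps50, wild type 2 at 8.32, had a gap ratio of 0.857. For Snx11 the highest array, wild type 4 at 6.90, had a gap ratio of 1.0. The other wild type arrays were tied at 6.86, which forces that ratio at any distance, so this mark is not informative. Snx18 rose, with a log2 fold change of 0.56 to 0.69 when each array was left out in turn, and Snx1, Snx11 and Vps50 did not pass the threshold.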

How the results depend on the processing

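The 11 genes past the threshold numbered 7 with the title-number block and 0 without both knockout 3 and wild type 4, and 0 to 11 with 1 array left out, lowest without knockout 3. The 8 that rose numbered 5 with the title-number block, 0 without both arrays and 0 to 9 with 1 left out. The 3 that fell numbered 1 with the replicate block, 0 without both arrays and 0 to 4 with 1 left out. The 17 other machine genes numbered 10 with the mean of all probe sets, 10 with the replicate block, 0 without both arrays and 1 to 14 with 1 left out. The 42 cell type markers numbered 30 with the title-number block, 0 without both arrays and 11 to 38 with 1 left out. Without both arrays 4 genes in all passed limma, and 17 of the 64 had an unadjusted p under 0.05.

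Deviations of knockout and wild type arrays with the same replicate number correlated at 0.182, 0.103 and −0.143. The first 2 of these pairs also share a title number, and the third, knockout 3 with wild type 3, does not. These values therefore do not settle whether the replicate number is a pairing. The replicate block left 9 of the 64 genes past the threshold, 8 of them among the 11, against 12.6% of all genes. Deviations across genotypes correlated at 0.103 to 0.319 inside title-number groups, and the highest correlation elsewhere was 0.0227.

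Over the settings the called genes gave 187 values: 122 stayed past the threshold, 65 did not and 0 changed sign. Because the genotypes do not overlap for these genes, their sign could not change where arrays were left out, blocked or weighted. The other genes followed over the settings, which were not all the uncalled members given with values above, changed sign in 19 of 357 values. Some passed: Snx6 with quantile normalization and array weights, Vps26a without knockout 2 and with trend and robust settings, Vps37a with the mean and the most variable probe set, and Vps53 with the most variable one, among others. The mean of all probe sets turned Snx27 to 0.01, Vps13d to 0.04, Vps29 to 0.00, Vps37a to 0.35 and Vps53 to −0.07. The most variable probe set turned Vps13d to 0.15, Vps29 to −0.01, Vps37a to 0.55, Vps50 to 0.12 and Vps53 to −0.32. Median centring turned Vps29 to −0.02 and Vps53 to −0.01. With 1 array left out Snx27 ranged from −0.09 to 0.04 and Vps29 from −0.02 to 0.07, and without both knockout 3 and wild type 4 Snx27 was 0.00. Apart from the probe set settings, where another probe set is read, the cause was not tested. In the pairs, 0 passed an adjusted p of 0.05 in the 4 settings run, a threshold that the smallest p of the exact test puts almost out of reach. With 3 knockout and 4 wild type arrays, the smallest fall called in the set was −0.27 and the smallest rise 0.29 on the log2 scale.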

Other observations

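Vps9d1 stood outside the 64 genes because its symbol has a second number after the letters, and it was picked here after its values were seen. Its product carries the VPS9 domain found in activators of endosomal Rab5 proteins. It had log2 signals of 6.84, 6.91 and 6.74 in knockout arrays, against 7.25, 7.14, 7.28 and 7.07 in wild type arrays. Every knockout array was below every wild type array. Vps9d1 fell in knockout testis, with a log2 fold change of −0.35 (SE 0.08, limma adjusted p = 0.0210), and it stayed past the threshold with the title-number block (limma adjusted p = 0.0322). With 1 array left out it passed in 4 of 7 runs.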
